A study of Drosophila melanogaster
Mus musculus with 4 samples.

Results

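Accessible sites around Rag1, Rag2 and Dntt, the genes of the lymphoid recombination machinery, were compared between Hdac3-deleted and wild-type B cell precursors. Sites of the authors' table were taken when their start lay at chr2:101450000-101850000, around Rag1 and Rag2, or at chr19:41010000-41150000, around Dntt (mm10). This gave 42 of 69709 sites, 29 in the Rag1 and Rag2 window and 13 in the Dntt window. They are numbered R1 to R29 and D1 to D13 by coordinate. Rag1 and Rag2 were taken to lie at about 101.62 to 101.66 Mb of chromosome 2, and Dntt at about 41.03 to 41.06 Mb of chromosome 19. The spans are approximate and no mouse annotation was used, so which site is a promoter, exon or intron was not determined. For the same reason the sorted cell type and the deletion were not checked at marker genes or at Hdac3.

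RAG1 and RAG2 together form the recombinase that cuts DNA beside antigen receptor gene segments. Their genes lie next to each other, are read toward one another, and are switched on in developing lymphocytes through distant enhancers. Dntt encodes terminal deoxynucleotidyl transferase, which adds bases without a template at the joints of heavy chain genes in precursors of adult marrow.

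ATAC-seq, in which a transposase inserts adapters into open DNA, was done on B220+CD43+ cells, a gate that holds early B cell precursors. The cells came from bone marrow of C57BL/6 mice 8 weeks old. Libraries were made from 2 samples with Hdac3 deleted (genotype label HDAC3 KO) and from 2 Hdac3+/+ wild-type samples, each from 50000 cells with 5% Drosophila S2 cells added. Hdac3 is a histone deacetylase of nuclear corepressor complexes. The labels name no Cre line; the published study is known to have used Cre expressed from mb-1 (Cd79a), which acts in the B lineage. The labels do not say whether wild-type mice carried Cre. They also do not state that replicates are different mice, and the p-values then reflect only how far these samples spread. Between the Hdac3-deleted samples this spread may be technical. The 2 wild-type samples differ on the sex chromosomes, as given below, so their spread is not technical alone.

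The libraries differed in depth, from 16132402 to 32988999 reads in sites, and wild-type replicate 1 was the deepest. Values are normalized reads, the reads per site after the authors' scaling of each library. The sites of both windows held from 23 to 1413 reads per library before scaling. Wild-type replicate 2 stood apart on the sex chromosomes, with 10 peaks on chromosome Y below 50 Mb against 0 in each other library, and with 27 chromosome X sites at which it was over 8-fold lower than any other library. Results that rest on a single library are given with and without it.

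Most sites near the recombinase genes did not pass the test, and those that did pointed both ways. In the Rag1 and Rag2 window Hdac3-deleted cells gained accessibility at 6 of 29 sites and lost it at 3, where 11.7% of all sites passed upward and 8.90% downward (20.6% in either direction). In the Dntt window 3 of 13 sites were higher and 0 were lower, beside the same shares of all sites. An unadjusted p under 0.05 (limma) was reached by 3 of these 13 sites, against 22991 of the 69709 sites. edgeR also called 3 higher and 0 lower there, against 8544 higher and 6074 lower over all sites. Calls come from limma, fitted to log2 values after adding 1 normalized read, at a Benjamini-Hochberg adjusted p under 0.05 across the 69709 sites. Fold changes are given on this log2 scale, and exact permutation of 2 against 2 libraries could not reach 0.05. The median log2 fold change, Hdac3-deleted minus wild type, was -0.10 in the Rag1 and Rag2 window and 0.27 in the Dntt window, beside -0.01 over all sites. The members are neighbours on a chromosome and share the same 4 libraries, so these counts describe the windows and are no test of them. In libraries of sorted cells, fewer cells with an open site and less opening per cell cannot be told apart.

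**Figure D1:**
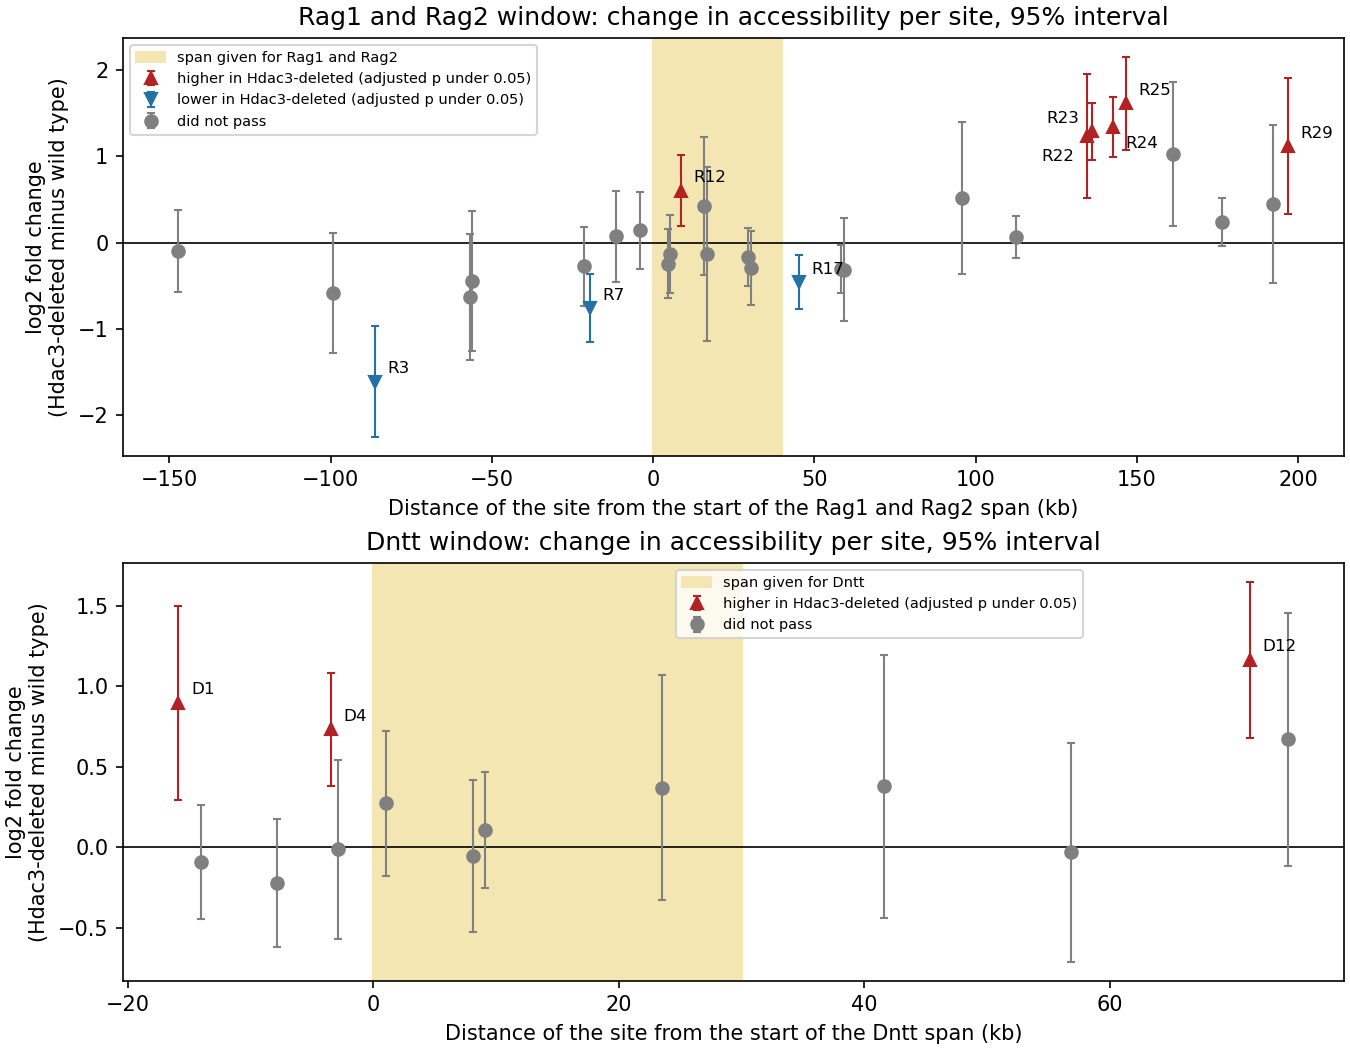
Log2 fold change of each site (Hdac3-deleted minus wild type, vertical axis, with 95% interval) against its distance in kb from the start of the Rag1 and Rag2 span or the Dntt span (horizontal axis). The run R22 to R25 lies between 1.23 and 1.61, while the sites inside both shaded spans lie between -0.30 and 0.60.

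Inside the Rag1 and Rag2 span the total accessibility was close in both genotypes. Its 7 sites, R10 to R16, summed to 1760 and 1735 normalized reads in Hdac3-deleted replicates 1 and 2, against 1932 and 1623 in wild-type replicates 1 and 2. Both Hdac3-deleted sums lie between the wild-type ones, and the ratio of the means was 0.983. Of the 7 sites, 1 was higher and 0 were lower, beside 11.7% and 8.90% of all sites.

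The most accessible site of the span by reads per length was R15 at chr2:101649385-101649865. It held 477 and 484 normalized reads in Hdac3-deleted replicates 1 and 2, against 630 and 462 in wild-type replicates 1 and 2. The groups overlap, and only wild-type replicate 1 stood above the rest. Its log2 fold change was -0.17, with a 95% interval of -0.51 to 0.17 (limma, adjusted p = 0.515). A loss of more than 0.51 or a gain of more than 0.17 on the log2 scale therefore lies outside the interval.

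At the other end of the span, R10 at chr2:101624571-101625055 held 357 and 298 normalized reads in Hdac3-deleted replicates 1 and 2, against 458 and 326 in the wild-type replicates. The groups overlap here too (log2 fold change -0.24, 95% interval -0.65 to 0.16, limma, adjusted p = 0.407). Peak summits at R10 fell within 6 bp of each other in the 4 libraries, between 101624705 and 101624711. Summits are the highest points of reads extended to 140 bp, so they do not give the position of strongest cutting. At R15 the summits spanned 41 bp.

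Each of these strong sites had a weaker companion at higher coordinates, 0.151 kb from R10 and 0.568 kb from R15. R11 at chr2:101625206-101625598 held 179 normalized reads in each Hdac3-deleted library, against 212 and 183 in wild type. R16 at chr2:101650433-101650795 held 202 and 203 in Hdac3-deleted cells, against 278 and 223 in wild type. At R11 and R16 both Hdac3-deleted libraries were below both wild-type libraries, a pattern found at 30.5% of all sites, and neither site passed the test (log2 fold changes -0.13 and -0.30, limma, adjusted p of 0.714 and 0.339).

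The exception in the span was R12 at chr2:101628640-101629196, between the companion R11 and the weak sites R13 and R14. It held 472 and 392 normalized reads in Hdac3-deleted replicates 1 and 2, against 236 and 339 in wild-type replicates 1 and 2. Both Hdac3-deleted libraries were above both wild-type libraries, and the wild-type libraries differed from each other by more than the Hdac3-deleted ones. The rise was 0.60 on the log2 scale, with a standard error of 0.19 (limma, adjusted p = 0.0370). The call was lost without wild-type replicate 1 (log2 fold change 0.34, adjusted p = 0.373), without Hdac3-deleted replicate 1 (0.47, adjusted p = 0.204) and with scaling to the tags left after filtering (0.59, adjusted p = 0.282); over the 14 alternatives the adjusted p lay between 0.00221 and 0.373. In the authors' deposited table its FDR was 0.0523.

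R12 can also be set against R10 and R11 within each library, free of any scaling between libraries. R12 held 1.32 times the reads of R10 in both Hdac3-deleted libraries, against 0.517 and 1.04 times in wild-type replicates 1 and 2. R12 thus held more reads than R10 in each Hdac3-deleted library, and its reads were close to those of R10 in wild-type replicate 2. R12 is 557 bp long and R10 485 bp. Against R11, R12 held 2.64 and 2.19 times the reads in Hdac3-deleted replicates 1 and 2, and 1.12 and 1.86 times in wild type. R10 and R11 had log2 fold changes of -0.24 and -0.13 and did not pass, but such falls also raise these ratios. The ratios were chosen after their values were seen and have no test.

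The sites R13 and R14, at chr2:101635919-101636195 and chr2:101636670-101636938, were the weakest of the span. R13 held 48.0 and 98.3 normalized reads in Hdac3-deleted replicates 1 and 2, against 48.5 and 53.3 in wild type. R14 held 27.0 and 81.0 in the Hdac3-deleted replicates, against 70.4 and 37.4 in wild type. At both sites the Hdac3-deleted replicates differed more than the group means did, and the 95% interval for R14 ran from -1.14 to 0.88 on the log2 scale, so a fall of up to 1.14 and a rise of up to 0.88 both lie within it.

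Ordered by level per length, R15 came first in both genotypes, with 99.8 ± 1.03 normalized reads per 100 bp in Hdac3-deleted cells and 113 ± 24.7 in wild type (SD, n = 2 each). R10 held 67.4 ± 8.62 in Hdac3-deleted cells and 80.7 ± 19.2 in wild type, and R16 held 55.8 ± 0.281 in Hdac3-deleted cells and 69.0 ± 10.5 in wild type. R12 held 77.5 ± 10.1 in Hdac3-deleted cells and 51.7 ± 13.0 in wild-type cells, and so stood above R10 and R16 in Hdac3-deleted means and below both in wild-type means. R12 and R10 in Hdac3-deleted cells, and R10 and R16 in wild type, differed by about as much as their replicates. R11 came next, and R13 and R14 were last in both genotypes, in an order that differed between genotypes within their spread.

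**Figure D2:**
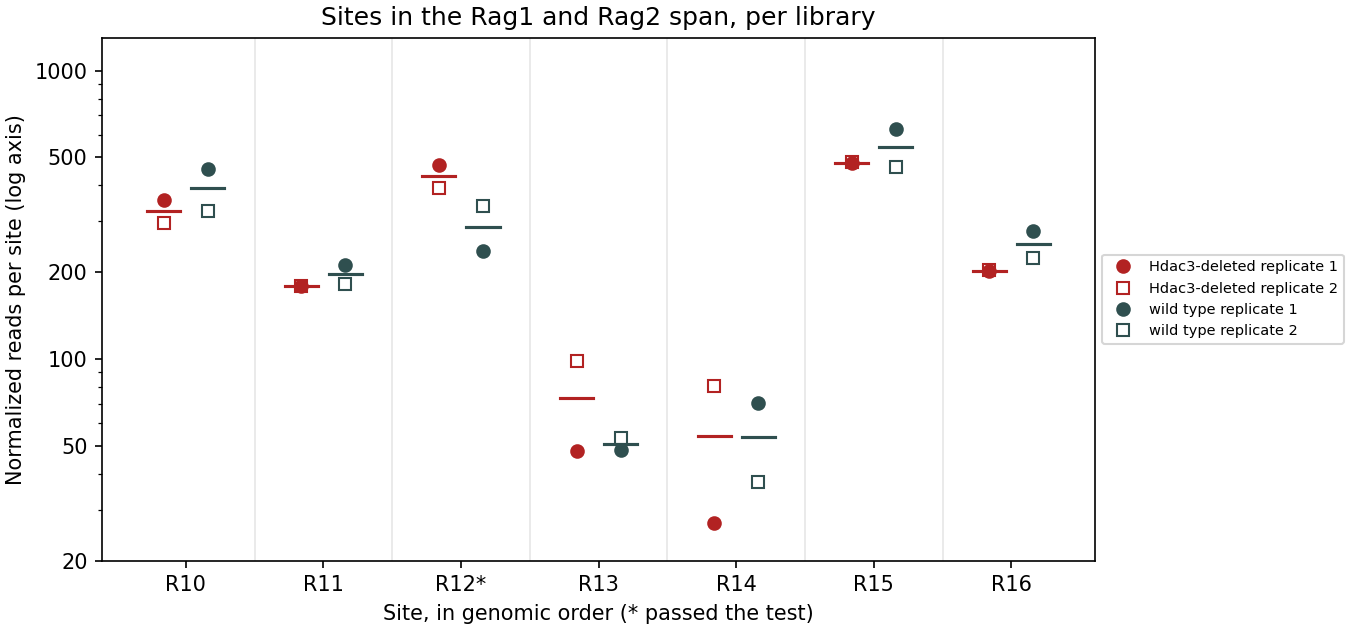
Normalized reads per site (log axis) in each library at the 7 sites of the Rag1 and Rag2 span; symbols are libraries, short lines the mean of 2. The Hdac3-deleted and wild-type symbols overlap at R10, R13, R14 and R15, and R12 is the site where Hdac3-deleted libraries, at 472 and 392, lie above wild-type ones, at 236 and 339.

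Toward lower coordinates 2 of 9 sites were called lower and 0 higher, beside 8.90% and 11.7% of all sites, and 1 of the 2, R7, lost its call in 3 of the 14 alternatives. The largest fall of the window was at R3, chr2:101533636-101534051, which lies 86.4 kb before the start of the span. R3 held 42.0 and 43.8 normalized reads in Hdac3-deleted replicates 1 and 2, against 144 and 123 in the wild-type replicates. The replicates lay close together and the groups apart, with a ratio of means of 0.322. The log2 fold change was -1.61 with a standard error of 0.30 (limma, adjusted p = 0.00185), and it stayed past the threshold in all 14 alternatives (adjusted p of 0.000350 to 0.0266). A peak was called at R3 in both wild-type libraries and in Hdac3-deleted replicate 2, and in Hdac3-deleted replicate 1 none was called.

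Closer to the genes, R7 at chr2:101600380-101600967 lies 19.6 kb before the span and was the strongest site on that side. R7 held 283 and 413 normalized reads in Hdac3-deleted replicates 1 and 2, against 646 and 518 in wild type. Both Hdac3-deleted libraries were below both wild-type ones, and the fall was -0.76 on the log2 scale with a standard error of 0.19 (limma, adjusted p = 0.00899). The call was lost without Hdac3-deleted replicate 1 (log2 fold change -0.49, adjusted p = 0.0893), without wild-type replicate 1 (-0.60, adjusted p = 0.0615) and with scaling to the tags left after filtering (-0.77, adjusted p = 0.111), within a range of 0.000332 to 0.111. Its neighbour R6, 1.23 kb away at chr2:101598542-101599150, held 233 and 329 normalized reads in Hdac3-deleted replicates, against 402 and 280 in wild type, and these overlap. Within each library R7 held 1.21 and 1.25 times the reads of R6 in Hdac3-deleted cells, against 1.61 and 1.85 times in wild type, a ratio that scaling between libraries cannot move and that was chosen after its values were seen.

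The other sites before the span did not pass. R1, R2, R4, R5 and R6 had log2 fold changes between -0.63 and -0.10, whereas R8 and R9, the nearest to the span, had 0.07 and 0.14. Over the 9 sites the median was -0.45, beside -0.01 over all sites. Their summed level was 1216 and 1592 normalized reads in Hdac3-deleted replicates 1 and 2, against 2072 and 1629 in wild-type replicates 1 and 2. Hdac3-deleted replicate 2 was just below wild-type replicate 2, a gap much smaller than the gap between replicates of either genotype.

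Toward higher coordinates, the first called site moved down and the more distant ones up. R17 at chr2:101665246-101666127, just past the span, held 454 and 478 normalized reads in Hdac3-deleted replicates 1 and 2, against 715 and 572 in wild type. It fell by 0.46 on the log2 scale with a standard error of 0.15 (limma, adjusted p = 0.0390), a call that was lost without wild-type replicate 1 (log2 fold change -0.30, adjusted p = 0.406), without either Hdac3-deleted replicate (adjusted p of 0.128 and 0.0507), after loess (0.0587) and with scaling to the tags left (0.440); the range was 0.0122 to 0.440. The next strong site, R18 at chr2:101678234-101679066, held 641 and 824 in Hdac3-deleted cells, against 915 and 887 in wild type, and did not pass (log2 fold change -0.31, limma, adjusted p = 0.111). The highest level of the window was at R21, chr2:101732455-101733470, with 880 and 1023 normalized reads in Hdac3-deleted replicates, against 938 and 878 in wild type. R21 ranked at the 92.0th percentile of all sites by mean level and its groups overlap (log2 fold change 0.06, 95% interval -0.18 to 0.31).

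Beyond R21, 4 neighbouring sites in 12.5 kb, R22 to R25, were all called higher in Hdac3-deleted cells. Together they summed to 1937 and 1800 normalized reads in Hdac3-deleted replicates 1 and 2, against 707 and 758 in the wild-type replicates. The summed level was 2.55 times the wild-type one. The run was delimited by these calls, so its sum was bound to be higher and is given as a description. These sites lie 134 to 147 kb past the start of the Rag1 and Rag2 span, and no gene was assigned to them here.

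The best covered of the run were R23 at chr2:101756078-101756904 and R24 at chr2:101762424-101763371. R23 held 719 and 627 normalized reads in Hdac3-deleted replicates 1 and 2, against 284 and 267 in wild type, a log2 fold change of 1.29 with a standard error of 0.16 (limma, adjusted p = 0.000113). R24 held 935 and 744 in the Hdac3-deleted replicates, against 289 and 376 in wild type (log2 fold change 1.34, standard error 0.16, limma, adjusted p = 0.000120). Per 100 bp R23 held 81.4 ± 7.89 normalized reads in Hdac3-deleted cells and 33.3 ± 1.45 in wild type (SD, n = 2 each). In Hdac3-deleted cells this mean lies between those of R12 and R15 of the span, and in wild type between those of R14 and R11. R25 at chr2:101766623-101766952 had the largest rise of both windows, with 193 and 266 normalized reads in Hdac3-deleted cells, against 74.4 and 72.6 in wild type (log2 fold change 1.61, limma, adjusted p = 0.000643). R22 at chr2:101754484-101754723 was the weakest, with 89.9 and 163 in Hdac3-deleted replicates, against 60.4 and 43.1 in wild type (log2 fold change 1.23, limma, adjusted p = 0.0174).

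R23, R24 and R25 stayed past the threshold in all 14 alternatives. R22 lost its call without Hdac3-deleted replicate 2 (log2 fold change 0.80, adjusted p = 0.160) or without wild-type replicate 2 (0.99, adjusted p = 0.0555), in a range of 0.00442 to 0.160. Set against R21 in the same library, in ratios chosen after their values were seen, R24 held 1.06 and 0.727 times its reads in Hdac3-deleted replicates 1 and 2, against 0.308 and 0.428 times in wild type. R23 held 0.817 and 0.613 times the reads of R21 in Hdac3-deleted cells, against 0.302 and 0.304 times in wild type.

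The last sites of the window moved less clearly. R26 at chr2:101781318-101781712 held 112 and 54.5 normalized reads in Hdac3-deleted replicates, against 32.5 and 44.2 in wild type, and missed the threshold (log2 fold change 1.02, limma, adjusted p = 0.0781). R29 at chr2:101816913-101817190 held 65.9 and 90.3 in Hdac3-deleted replicates, against 29.2 and 42.0 in wild type, and passed (log2 fold change 1.12, standard error 0.37, limma, adjusted p = 0.0424). The R29 call was lost without wild-type replicate 1 (log2 fold change 0.86, adjusted p = 0.270), without Hdac3-deleted replicate 2 (0.89, adjusted p = 0.186), in the DESeq2 Wald test (adjusted p = 0.0907), after loess (0.0593) and with scaling to the tags left (0.0502), in a range of 0.0361 to 0.270. R19, R20, R27 and R28 had log2 fold changes between -0.31 and 0.51 and did not pass. Over the 13 sites past the span the median log2 fold change was 0.51, and the summed level was 4968 and 5157 in Hdac3-deleted replicates, against 4079 and 3986 in wild type. The first site beyond the window, 6.28 kb on, had a log2 fold change of 1.66 and passed (limma, adjusted p = 0.0354), and the last site before it, 126 kb away, had 0.18 and did not.

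**Figure D3:**
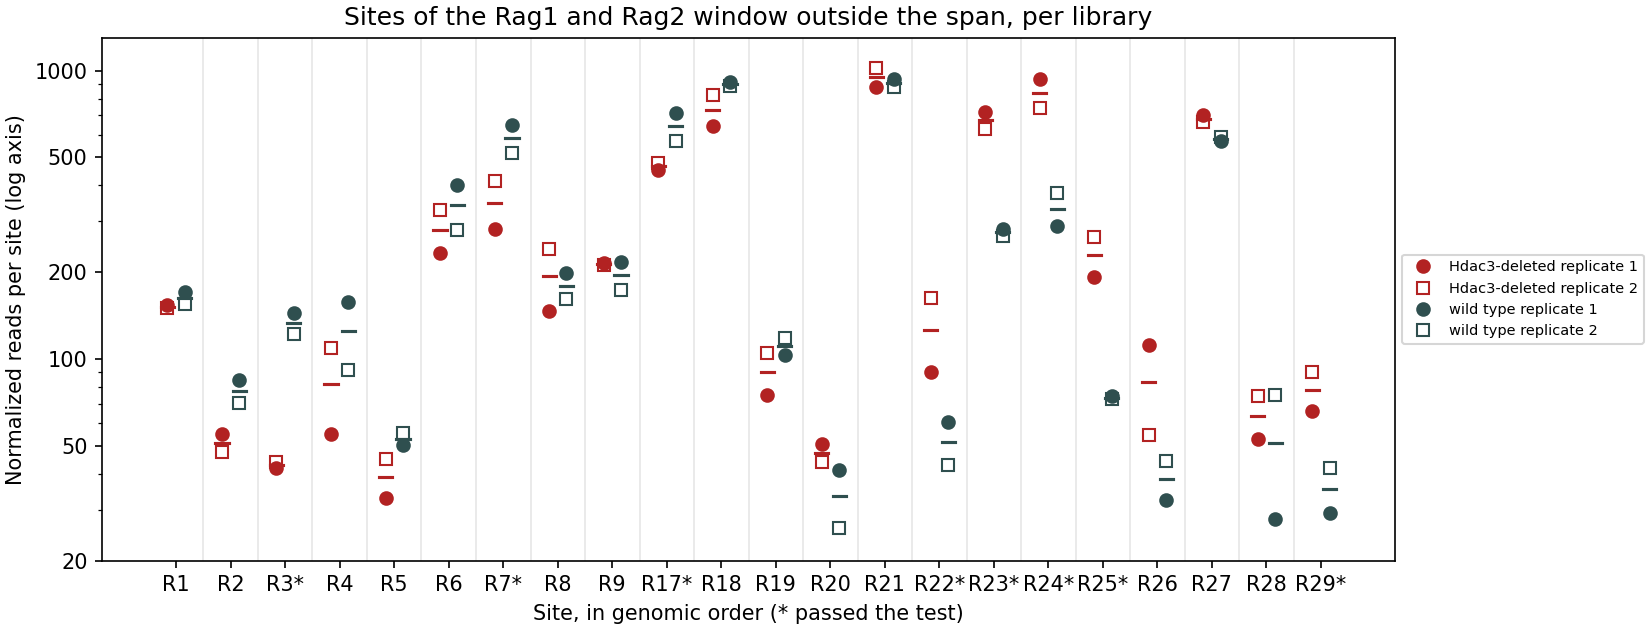
Normalized reads per site (log axis) in each library at the 22 sites of the Rag1 and Rag2 window outside the span; symbols are libraries, short lines the mean of 2, and * marks sites that passed the test. Hdac3-deleted symbols lie below the wild-type ones at R3, R7 and R17, which passed, and at R1, R2, R5 and R18, which did not. They lie above them at R22 to R25 and R29, which passed, and at R20, R26 and R27, which did not. Over all sites these patterns were found at 30.5% (below) and 30.1% (above).

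The span of Dntt held 4 sites, D6 to D9, and none of them passed the test, where 20.6% of all sites passed. They summed to 851 and 963 normalized reads in Hdac3-deleted replicates 1 and 2, against 887 and 779 in wild-type replicates 1 and 2, with a ratio of means of 1.09. The sums of the genotypes overlap. All 4 sites had a peak in each of the 4 libraries, as had 65.4% of all sites.

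D8 at chr19:41039103-41039569 had the highest level of the Dntt window over the mean of all 4 libraries, although in Hdac3-deleted cells the mean of D4 was above it, at 441 normalized reads against 423. D8 held 386 and 460 normalized reads in Hdac3-deleted replicates, against 437 and 349 in wild type, which overlap (log2 fold change 0.11, 95% interval -0.25 to 0.47, limma, adjusted p = 0.714). D7, 0.569 kb before it at chr19:41038158-41038534, held 187 and 194 in Hdac3-deleted cells, against 233 and 168 in wild type. D6 at chr19:41031025-41031379, at the start of the span, held 198 and 235 in Hdac3-deleted replicates, against 169 and 188 in wild type. At D6 both Hdac3-deleted libraries were above both wild-type libraries, as at 30.1% of all sites, by an amount that did not pass (log2 fold change 0.27, limma, adjusted p = 0.407). D9 at chr19:41053537-41053785 was weak, with 80.9 and 74.4 in Hdac3-deleted cells, against 48.5 and 73.7 in wild type (log2 fold change 0.37, 95% interval -0.33 to 1.07). Per 100 bp, mean levels fell in the order D8, D6, D7 and D9 in Hdac3-deleted cells and D8, D7, D6 and D9 in wild type, and D6 and D7 differed by less than the spread between replicates in wild type.

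Outside the span, 3 sites of the Dntt window rose. D4 at chr19:41026575-41026936, which lies 3.42 kb before the span, held 443 and 440 normalized reads in Hdac3-deleted replicates 1 and 2, against 260 and 270 in the wild-type replicates. Replicates of each genotype were close and the rise was 0.73 on the log2 scale with a standard error of 0.17 (limma, adjusted p = 0.00601). In Hdac3-deleted cells D4 was the most open site of the window per length, at 122 ± 0.560 normalized reads per 100 bp, against 73.3 ± 1.89 in wild type (SD, n = 2). Its close neighbour D5 at chr19:41027139-41027362 did not pass, with 108 and 162 normalized reads in Hdac3-deleted replicates, against 141 and 126 in wild type (log2 fold change -0.01, 95% interval -0.57 to 0.54). The difference between D4 and D5 was not tested. Within a library D4 held 1.65 and 1.41 times the reads of D3 in Hdac3-deleted cells, against 0.676 and 0.912 times in wild type, also chosen after its values were seen. D4 lost its call in 1 of 14 alternatives, scaling to the tags left after filtering (log2 fold change 0.72, adjusted p = 0.150, range 0.00252 to 0.150).

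D1 at chr19:41014149-41014339 held 163 and 116 normalized reads in Hdac3-deleted replicates, against 66.4 and 80.5 in wild type (log2 fold change 0.90, standard error 0.28, limma, adjusted p = 0.0343). D1 lost its call without wild-type replicate 1 (log2 fold change 0.76, adjusted p = 0.179), without Hdac3-deleted replicate 1 (0.65, adjusted p = 0.221), in the DESeq2 Wald test (adjusted p = 0.0567) and with scaling to the tags left (0.0764), in a range of 0.0158 to 0.221. On the far side of the gene, D12 at chr19:41101402-41101812 held 222 and 240 in Hdac3-deleted replicates, against 108 and 97.6 in wild type. The rise of D12 was the largest of the window, 1.16 on the log2 scale with a standard error of 0.23 (limma, adjusted p = 0.00247), and it passed in all 14 alternatives. D2 and D3, before the span, and D10, D11 and D13, past it, had log2 fold changes between -0.22 and 0.67 and did not pass. The nearest sites outside the window, 2.60 kb below and 26.9 kb above it, had log2 fold changes of -1.52 and 1.35, and both passed (limma, adjusted p of 0.00570 and 0.00402). A called fall thus lies just outside a window that holds 0 of them.

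**Figure D4:**
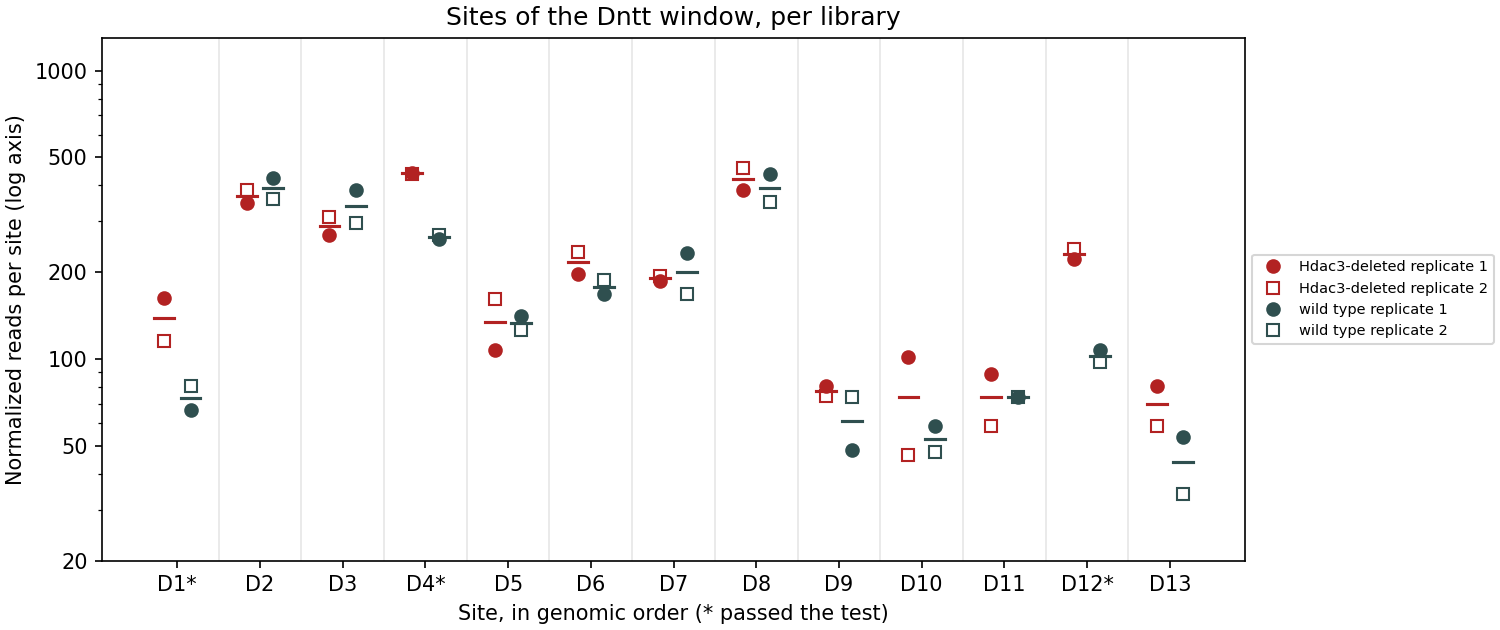
Normalized reads per site (log axis) in each library at the 13 sites of the Dntt window; symbols are libraries, short lines the mean of 2, and * marks sites that passed the test. Hdac3-deleted symbols lie above wild-type ones at D1, D4 and D12, which passed, and at D6, D9 and D13, which did not. This pattern was found at 30.1% of all sites. At D8, the strongest site of the span, the symbols overlap.

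The sums set the parts of each window side by side. Over the whole Rag1 and Rag2 window the level was 8214 ± 381 normalized reads in Hdac3-deleted cells and 7661 ± 597 in wild type (SD, n = 2 each), and over the Dntt window 2729 ± 75.2 in Hdac3-deleted cells and 2311 ± 207 in wild type. The log2 ratios of these means were 0.10 and 0.24, against pooled SDs of replicates of 0.093 and 0.096, and -0.03 over all sites. They are scores over chosen members and have no test. R22 to R25 were delimited by their higher calls, so leaving them out was bound to lower the Rag1 and Rag2 ratio. Without these 4 sites the window held 6346 ± 478 normalized reads in Hdac3-deleted cells and 6928 ± 633 in wild type. The log2 ratio was then -0.13, against a pooled SD of 0.12. This second ratio therefore says nothing on the direction of the window. With all sites the Rag1 and Rag2 ratio was about as large as its pooled SD, so no direction of that window was established. The Dntt sums were 2676 and 2782 in Hdac3-deleted replicates 1 and 2, against 2458 and 2165 in wild type. They did not overlap, and this difference was not tested. Without R22 to R25 the sites past the span summed to 3031 and 3357 in Hdac3-deleted replicates, against 3372 and 3229 in wild type, which overlap.

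**Figure D5:**
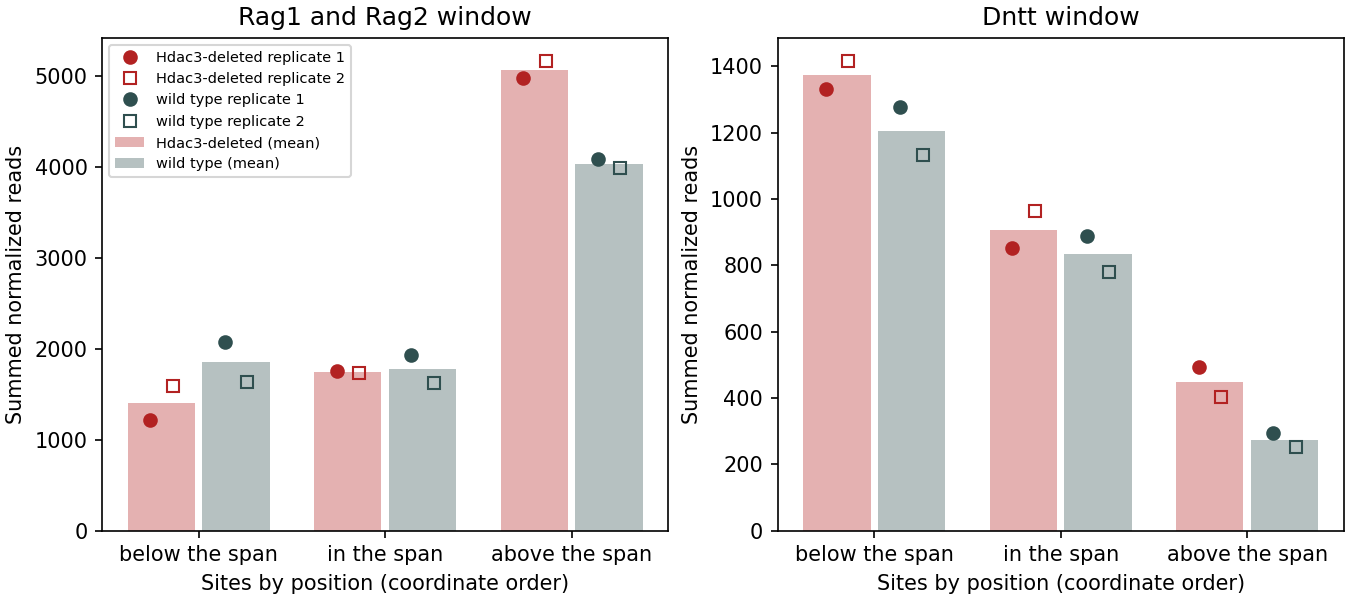
Summed normalized reads of the sites before, in and past the gene spans; bars are genotype means of 2 libraries, symbols the libraries. In the spans the symbols of both genotypes overlap. Past the Rag1 and Rag2 span the Hdac3-deleted sums, 4968 and 5157, lie above the wild-type sums, 4079 and 3986. Sums without R22 to R25 are not drawn. There the Hdac3-deleted sums, 3031 and 3357, overlap the wild-type sums, 3372 and 3229. R22 to R25 were delimited by their higher calls, so leaving them out was bound to bring the sums down relative to wild type.

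Peaks called by the authors in each library by itself gave a like picture of presence. Of the 29 sites of the Rag1 and Rag2 window 17 overlapped a peak in all 4 libraries, and of the 13 Dntt sites 9, where 65.4% of all sites did. R29 and D1 had a peak in both Hdac3-deleted libraries and in neither wild-type library, as had 4.35% of all sites, and 0 members had the opposite pattern, found at 8.84% of all sites. In the Rag1 and Rag2 window 19 and 32 peaks were called in Hdac3-deleted replicates 1 and 2, against 36 and 25 in wild-type replicates 1 and 2. The numbers for the Dntt window were 13 and 12 in Hdac3-deleted cells, against 14 and 11 in wild type. The replicates differed more than the genotypes, and 9 of the 12 peaks of the Rag1 and Rag2 window that overlapped no site belonged to wild-type replicate 1, the deepest library. By the authors' fold enrichment over local background, a value of the peak caller used only to rank peaks within 1 library's list, R15 stood at the 56.3 and 62.1 percentile in Hdac3-deleted replicates, against 69.9 and 69.3 in wild type. D8 stood at the 80.5 percentile in each Hdac3-deleted replicate, against 80.9 and 84.6 in wild type. The lists differ in length, so these ranks cannot be compared between libraries.

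The sites with the most similar profile over the 4 libraries were sought by the root mean square difference of centred log2 values. R15 was closest to D7 on the other chromosome (difference 0.058), R10 to R15 (0.11) and R16 to R15 (0.081). R12 was closest to D9 (0.13), R7 to R17 (0.22), R23 to D12 (0.13) and R24 to R23 (0.17). With 4 libraries such likeness is a description only.

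In the authors' deposited table, which holds their own comparison, 6 sites of the Rag1 and Rag2 window were higher and 2 lower at an FDR under 0.05, where 15.3% and 9.80% of all sites were. Among Dntt sites in the authors' deposited table, 3 were higher and 0 lower. R26 was higher in the authors' deposited table (FDR 0.000809), while R12 and R17 were not called there.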

How the data were processed

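ATAC-seq signal was analysed in 2 Hdac3-deleted and 2 wild-type libraries, grouped by sample title. Per the submitters' processing notes the builds were mm10 and dm3 and the tools DiffBind 1.10.2, MACS2 2.0.10, Bowtie2 2.2.4, edgeR and SAMtools. Per the file headers, peaks were called per library without a control at a q cutoff of 0.001 with tags extended to 140 bp, on reads filtered for quality and duplicates and shifted. Pileup is a signal that the authors did not scale, peak scores are −log10 p-values or q-values, and fold enrichment is a ratio to local background, per the file headers. The deposited site table gives a scaled signal per library, log2 means and log2 folds, and the authors' p-value and FDR columns. The merging of peaks into sites is a step that the sources used here do not describe.

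Deposited site starts lay 1 bp before a peak start (100% of sites), so starts are printed 1 higher, counted from 1. The signal values were whole multiples of 1 read (100% of values within 0.001 reads), from which reads were recovered. Without molecular identifiers reads are not independent molecules. No fly chromosome occurred among the deposited sites and peaks (0 features), so the added S2 cells could not be used for scaling here. Whether the authors' scaling used them was not determined, and an overall shift could not be checked.

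Limma 3.58.1 (R 4.3.3) was fitted over all sites on log2(value + 1), pseudocount 1, with the prior variance following the mean and Benjamini-Hochberg adjustment at 0.05. Fold changes on this scale understate those of low sites. No site was filtered out. The script was tested on simulated data. edgeR 4.0.16 on the recovered reads called 14618 sites, against 14335 here, and DESeq2 1.42.0 was another alternative, beside other pseudocounts, scalings, filters, thresholds, each library left out and the replicate block. Named were every site of the gene spans, every called site and the highest site of each window. A few other sites are named with their values because they neighbour these. Members, lists and alternatives were chosen with earlier results of these data known. Planned lists of other genes, markers and promoter motifs, and DNA sequences, were not analysed here, as they need a mouse annotation or genome.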

Additional observations from a re-analysis of the deposited data

How the results depend on the processing

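Of the 12 called sites, 5 (R3, R23, R24, R25 and D12) passed in all 14 alternatives, 7 lost their call in at least 1, as given above, and 0 changed direction. None of the 11 sites of the naming rule that did not pass was called in any alternative, with adjusted p from 0.109 upward. Dividing reads by the tags left after filtering lowered the calls to 8742 over all sites (5784 higher, 2958 lower), 5 in the Rag1 and Rag2 window (4 higher, 1 lower) and 1 in the Dntt window. A threshold of 0.01 gave 6444, 5 and 2 calls. With a library left out the calls ranged from 6595 to 14683 over all sites, 5 to 9 in the Rag1 and Rag2 window and 2 to 3 in the Dntt window. Without Hdac3-deleted replicate 2, 6 of the 9 calls in the Rag1 and Rag2 window were among those reported, and without wild-type replicate 2, 8 of 9. The lowest value came without wild-type replicate 1 in each case, and 8506 sites were called without Hdac3-deleted replicate 1. The Dntt window also had 2 without Hdac3-deleted replicate 1. The lone sample of a genotype is then assumed to vary like the others. The cause of these losses was not tested.

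With a library left out, sites that did not pass could change sign: log2 fold changes ran from -0.49 to 0.00092 at R10, -0.083 to 0.94 at R13, -0.91 to 0.65 at R14, -0.39 to 0.056 at R15, -0.044 to 0.17 at R21, -0.29 to 0.18 at D7 and -0.054 to 0.27 at D8. Under scalings and with a library left out, the summed log2 ratios ran from 0.02 to 0.18 in the Rag1 and Rag2 window and from 0.15 to 0.33 in the Dntt window. Without R22 to R25, an alternative chosen after seeing the data, the Rag1 and Rag2 value turned to -0.13. A shift downward was fixed in advance, as sites called higher were left out.

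Same-numbered libraries did not deviate together (r = -0.10 over 69709 sites). With 2 libraries per genotype, deviations from the genotype mean are exact opposites. Pairs of differing number therefore have the same r with a positive sign. The replicate block gave 14217 calls over all sites, 9 in the Rag1 and Rag2 window and 3 in the Dntt window. A crossed block, chosen after seeing the data, gave 19405, 11 and 3. It pairs each Hdac3-deleted library with the wild-type library of the other replicate number. By the letters A and B in the authors' library names, these are the same-letter pairs. Titles and letters thus give different pairings, and which of them, if either, reflects a shared preparation was not tested.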
